A study of Mus musculus with 2 samples.

Results

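Genes that type I interferon switches on were followed across the cell types of the inflamed central nervous system (CNS) in EAE (experimental autoimmune encephalomyelitis), the mouse disease that T cells against myelin cause and that models multiple sclerosis. The module was a set of 40 gene symbols named for their known induction by interferon, and the list was drawn up with earlier results of these data known. Of these, 38 are in the feature list of 32285 genes, and Mx1 and Mx2 are not analysed here. C57BL/6 mice that were WT, and mice of the genotype Stat4fl/flCD11cCre, in which a Cre recombinase under the CD11c promoter is meant to delete floxed Stat4 from dendritic cells and other CD11c-expressing cells, were immunized with MOG peptide, CFA and PTX. On day 15, CNS mononuclear cells were pooled within each genotype and sorted as MHCII+ CD11c+. Each pool gave 1 droplet library with counted molecules (UMIs) of genes and of 5 antibody tags. The mice's ages, and any Cre or floxed allele in the WT mice, are not stated in the sources at hand.

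With 1 library per genotype, no difference below has a replicate check and no p-value is given. Every interval is a 95% interval for counting error only, and genotype cannot be told apart from pool, sort and library. Cells were kept with at least 500 genes and 1000 UMIs and with mitochondrial UMIs below 10%. By this filter 13298 WT and 12305 Stat4fl/flCD11cCre cells remained, with medians of 6440.5 and 6878 UMIs per cell, and 43 barcodes occurred in both libraries. Stat4 was counted at 58.8 CPM (UMIs per 1000000 gene UMIs) over all WT cells and 40.9 CPM over all Stat4fl/flCD11cCre cells. In conventional type 2 dendritic cells (cDC2) it was at 104 and 77.4 CPM, and in microglia at 3.51 and 1.85 CPM. It was at 40.1 and 40.1 CPM in plasmacytoid dendritic cells, 12.8 and 13.3 CPM in classical monocytes and 48.7 and 49.8 CPM in neutrophils. CD8 T cells had 250 and 254 CPM, and CD4 T cells 242 and 228 CPM. The values over all cells also mix the types in the shares of each library, and that part was not tested. The deleted exons are not stated in the sources at hand and the kit reads transcript 3' ends, so Stat4 counts do not check the deletion. Cells were assigned to types by counting marker genes, and cells that met the markers of more than 1 type were left out. Despite the sort, T cells, natural killer (NK) cells and neutrophils were present, and H2-Aa, which encodes an MHC class II chain, had a UMI in 75.3% of WT but 21.2% of Stat4fl/flCD11cCre microglia. UMIs of Itgax, the CD11c gene, were found in 11.5% of WT and 5.34% of Stat4fl/flCD11cCre microglia. Comparisons were made in the 9 types that reached 100 cells in both libraries: microglia (3167 WT and 4926 Stat4fl/flCD11cCre cells), monocyte-derived macrophages (1036 and 782), classical monocytes (941 and 818), cDC2 (175 and 202), plasmacytoid dendritic cells (136 and 165), CD4 T cells (960 and 514), CD8 T cells (566 and 200), NK cells (306 and 236) and neutrophils (499 and 870).

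Type I interferons, which are interferon beta and the interferon alphas, bind the receptor IFNAR, whose signal activates a complex of transcription factors. That complex binds a DNA element called ISRE and induces antiviral genes. Interferon gamma, made by T and NK cells, acts through its own receptor on another element, GAS, and many genes answer to both, so the names of the members do not say which interferon acted. In EAE, interferon beta lessens disease, and myeloid cells of the CNS are among its targets.

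Promoter sequences were in the RefSeq table (build GRCm38.p6, from 250 bases before to 50 bases after a gene's start) for 31 of the 38 genes, and Usp18, Oas2, Ifi204, Dhx58, Rtp4, Zbp1 and Parp14 had no entry. The ISRE core, spelled GAAA, then 2 bases of any kind, then GAAA, and searched on both strands, was in at least 1 promoter of 18 of 31 members (58.1%). It was in 1079 of 27025 gene symbols of the table (3.99%), and in 3.44% of all 32851 promoters. Its presence 2 or more times was found in 7 of 31 members (22.6%) and in 72 of the 27025 symbols (0.266%). The GAS spelling TTCNNNGAA was in 6 of 31 members (19.4%) and in 9.55% of symbols. Both spellings were found in 3 members and neither in 10. Promoters that show these arrangements are printed 5' to 3' with ISRE core matches in capitals; matches can overlap, and a match is a description of letters, not of binding. Isg15 holds 3 overlapping matches, which begin 78, 72 and 66 bases before the start. Ifit3 holds 2 and Rsad2 holds 1. Ifitm3, which had the highest counts of the members in myeloid cells, has its 2 matches just after the start. Oasl1, the member with the lowest ratio in microglia, has none in this window.
Isg15, chr4:156200769-156201068, minus strand: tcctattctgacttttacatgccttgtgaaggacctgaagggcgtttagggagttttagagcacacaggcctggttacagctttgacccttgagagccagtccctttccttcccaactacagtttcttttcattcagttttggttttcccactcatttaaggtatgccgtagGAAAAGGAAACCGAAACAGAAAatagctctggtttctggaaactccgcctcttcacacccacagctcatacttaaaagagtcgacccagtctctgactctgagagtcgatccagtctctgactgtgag
Ifit3, chr19:34583279-34583578, plus strand: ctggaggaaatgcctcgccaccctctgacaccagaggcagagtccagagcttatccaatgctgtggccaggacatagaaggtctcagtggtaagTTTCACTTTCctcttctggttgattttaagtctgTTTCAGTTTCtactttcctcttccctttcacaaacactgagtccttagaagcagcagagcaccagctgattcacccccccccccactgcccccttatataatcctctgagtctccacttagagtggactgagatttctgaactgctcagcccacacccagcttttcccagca
Rsad2, chr12:26456403-26456702, minus strand: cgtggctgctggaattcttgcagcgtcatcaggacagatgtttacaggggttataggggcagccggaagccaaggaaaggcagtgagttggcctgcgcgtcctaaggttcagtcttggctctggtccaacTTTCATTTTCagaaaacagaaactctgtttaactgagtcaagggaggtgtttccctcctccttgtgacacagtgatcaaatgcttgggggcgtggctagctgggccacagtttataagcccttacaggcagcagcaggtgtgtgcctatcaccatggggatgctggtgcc
Ifitm3, chr7:141010695-141010994, minus strand: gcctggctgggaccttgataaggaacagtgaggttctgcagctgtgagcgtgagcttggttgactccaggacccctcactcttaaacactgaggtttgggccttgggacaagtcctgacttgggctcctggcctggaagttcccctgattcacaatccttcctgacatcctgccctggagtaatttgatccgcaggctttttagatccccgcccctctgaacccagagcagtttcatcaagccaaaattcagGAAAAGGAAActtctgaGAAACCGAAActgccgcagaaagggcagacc
Oasl1, chr5:114922990-114923289, plus strand: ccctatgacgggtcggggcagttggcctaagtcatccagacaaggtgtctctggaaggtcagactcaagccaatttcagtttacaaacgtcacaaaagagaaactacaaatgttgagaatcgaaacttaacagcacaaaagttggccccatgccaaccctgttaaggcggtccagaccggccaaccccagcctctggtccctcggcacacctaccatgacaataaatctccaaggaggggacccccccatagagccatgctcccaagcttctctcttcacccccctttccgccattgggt

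Several members are neighbours. Ifit2, Ifit3, Ifit1bl1, Ifit3b and Ifit1 lie between 34.55 and 34.66 Mb of chromosome 19, the PYHIN genes Ifi213, Ifi209, Ifi204 and Ifi203 between 173.57 and 173.94 Mb of chromosome 1, and Rsad2 beside Cmpk2 at 26.4 to 26.5 Mb of chromosome 12 (GRCm38.p6). Ifit3 and Ifit3b, Oas1a and Oas1g, Trim30a and Trim30c, and the PYHIN genes are close copies. Their counts are uncertain where reads could fit more than 1 of them.

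Among the 9 compared types, the module stood highest in classical monocytes and cDC2 and lowest in NK cells. In the WT library the 38 genes summed to 10080 CPM (10005 to 10155) in classical monocytes, 9144 CPM in cDC2, 6444 CPM in neutrophils, 4775 CPM in macrophages and 3176 CPM (3150 to 3201) in microglia. CD8 T cells followed with 2731 CPM, plasmacytoid dendritic cells with 2172 CPM, CD4 T cells with 1845 CPM and NK cells with 1190 CPM. No 2 neighbours in that order overlapped in their counting intervals. In the Stat4fl/flCD11cCre library the first 4 types kept their order, at 9503, 8050, 5555 and 4378 CPM. Microglia moved from the 5th to the 8th place there, with 1440 CPM (1427 to 1454), below CD8 T cells (2256 CPM), plasmacytoid dendritic cells (1925 CPM) and CD4 T cells (1735 CPM) and above NK cells (1364 CPM).

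**Figure D1:**
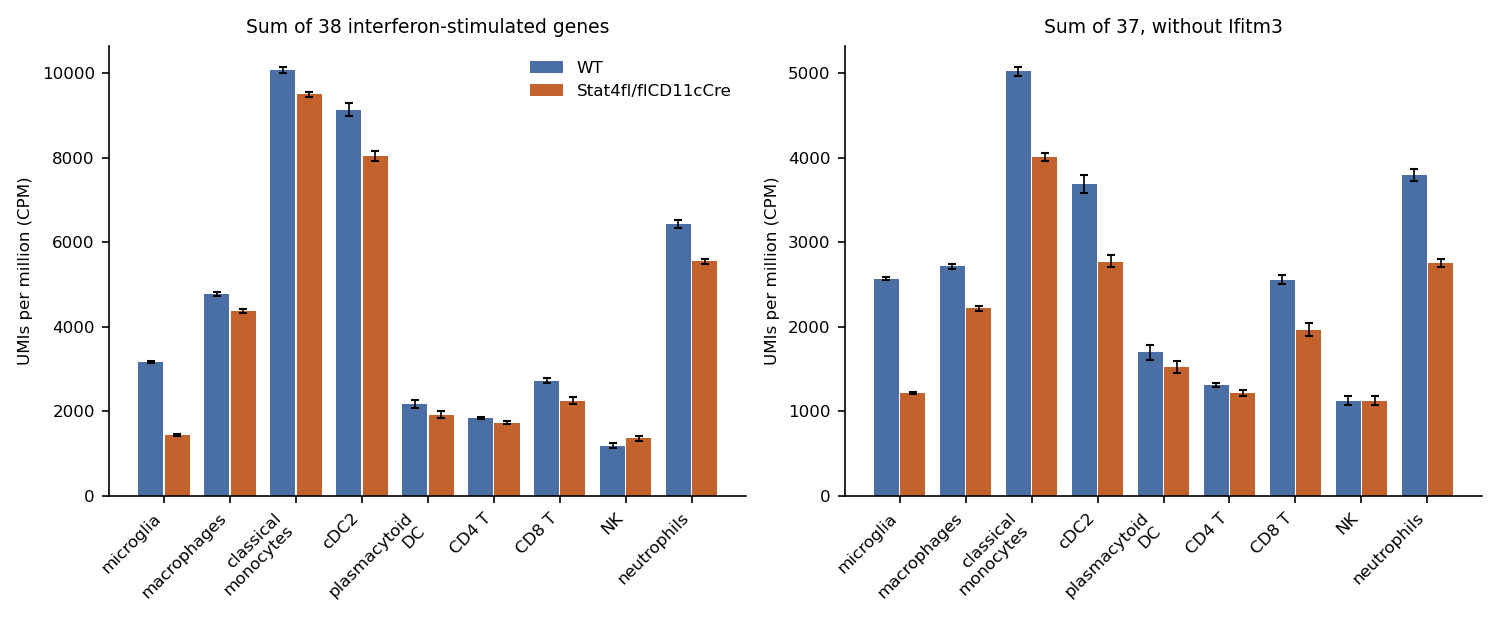
Summed level of the interferon-stimulated genes by cell type (x axis) in CPM (y axis), in the WT and Stat4fl/flCD11cCre libraries; bars are 1 library each and whiskers the 95% Poisson intervals. On the left the microglia bars stand at 3176 and 1440 CPM, and the other pairs are closer; on the right Ifitm3 is left out and classical monocytes drop to 5023 and 4008 CPM.

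Ifitm3, a membrane protein that blocks virus entry, supplied a large part of these sums in myeloid cells. Without it classical monocytes stood at 5023 CPM in WT and cDC2 at 3689 CPM. Neutrophils (3798 CPM, 3725 to 3873) and cDC2 (3588 to 3793) then overlapped in their intervals, as did microglia (2572 CPM) and CD8 T cells (2559 CPM). Of the 38 members, 16 had their highest WT level in classical monocytes, 11 in neutrophils, 3 each in CD8 T cells, cDC2 and microglia, and 2 in plasmacytoid dendritic cells. The members most concentrated in monocytes were Trim30c, Ifi204 (411 CPM, 33.1% of its level summed over the 9 types) and Ifi209. In neutrophils they were Rsad2, or viperin, which makes a chain-terminating nucleotide (161 CPM, 33.5%), Oasl2 (288 CPM, 29.8%) and Oas3. Microglia held the highest level of Eif2ak2, the RNA-activated kinase PKR (139 CPM, 24.9%), of Herc6, the mouse ligase that attaches ISG15 (147 CPM, 20.1%), and of Slfn8. CD8 T cells led for Ifit1bl1 (51.1 CPM, 51.0%), for the exonuclease gene Isg20 (198 CPM, 33.1%) and for Ifit3. Plasmacytoid dendritic cells led for Ifi44 (63.7 CPM, 43.0%) and Trim30a (354 CPM, 17.6%), and cDC2 led for Ifitm3 (5455 CPM, 32.0%), Xaf1 and Usp18.

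**Figure D2:**
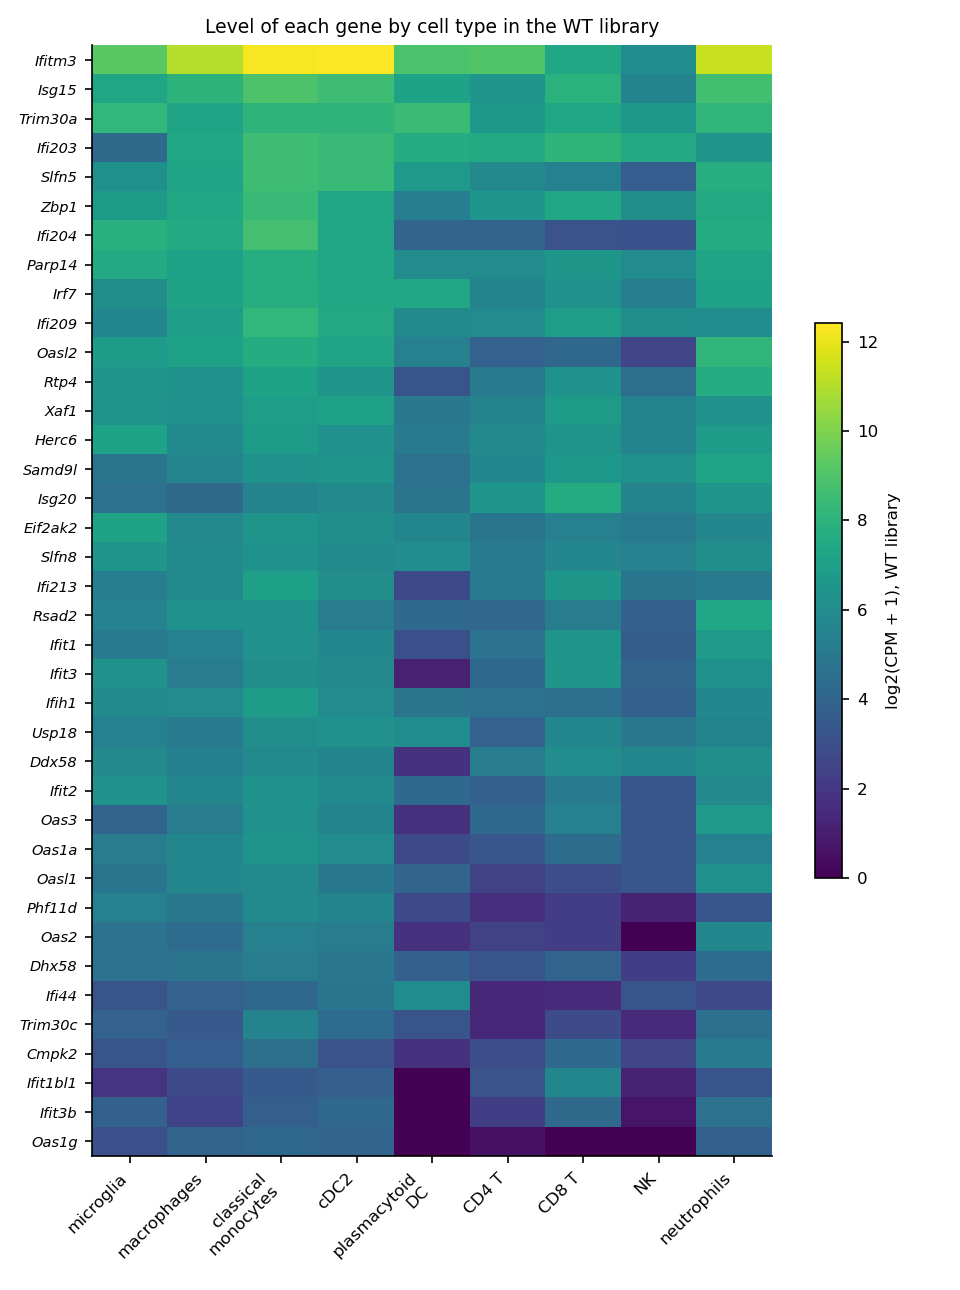
Level of each member (rows) by cell type (columns) in the WT library, as log2(CPM + 1); colours are to be compared along a row. Ifitm3 is bright in cDC2 (5455 CPM) and classical monocytes (5057 CPM), Isg20 in CD8 T cells (198 CPM).

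Members did not share 1 pattern over the types. Over the 18 points that the 9 types and 2 libraries give, the log2(CPM + 1) of Isg15 had a Pearson correlation of 0.93 with the sum of the other members, and Slfn5 one of 0.92. Isg20 (0.04), Ifi203 (0.27), Ddx58 (0.27) and Ifi44 (0.30) were the least alike. Outside the list, the 5 genes most like the sum were Samhd1 (0.960), Ms4a4c (0.956), Gm9733 (0.95), Mefv (0.933) and Sirpb1a (0.931). These correlations are descriptions over points that share libraries.

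Microglia, the resident macrophages of the CNS, showed the largest difference between the libraries of the 9 types. Their module was 0.454 times as high in Stat4fl/flCD11cCre as in WT, a log2 ratio of -1.14 (-1.16 to -1.12). All 38 members were lower, each with an interval below 0, and 34 of 38 were 1.5-fold or more lower, against 11.3% of all 12961 genes with 50 or more UMIs there. None was 1.5-fold or more higher, against 7.28% of all genes. The median log2 ratio of the members was -1.20, and that of all genes was 0.09. Fewer responding cells and less RNA per responding cell cannot be told apart in such sums.

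The OAS family, which makes the messenger that activates RNase L, had 6 of 6 members 1.5-fold or more lower in microglia, with a median log2 ratio of -1.67. Oasl1, a catalytically inactive relative that represses Irf7 translation, went from 27.7 to 7.20 CPM, a log2 ratio of -1.94 (-2.18 to -1.71). Oasl2 went from 110 to 34.8 CPM (-1.66). The 4 PYHIN genes, relatives of DNA-binding sensors, were all in that range (median -1.60), among them Ifi213 at 38.2 and 10.6 CPM (-1.85, -2.05 to -1.66) and Ifi204 at 232 and 77.5 CPM (-1.59). Irf7, the transcription factor that amplifies interferon alpha production, stood at 69.4 and 22.9 CPM (-1.60). Zbp1, a sensor of Z-form nucleic acid that can start necroptosis, stood at 107 and 33.4 CPM (-1.68, -1.79 to -1.57).

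The ubiquitin-like modifier Isg15 was at 157 CPM in WT and 59.1 CPM in Stat4fl/flCD11cCre microglia (-1.41), and Usp18, which removes ISG15 and damps the receptor, at 42.6 and 18.7 CPM (-1.19). The 5 IFIT genes, whose proteins bind foreign RNA, had a median of -1.18, with Ifit3 at 79.9 and 32.1 CPM (-1.32). Rsad2 stood at 43.7 and 17.5 CPM (-1.32) and Ifitm3 at 604 and 226 CPM (-1.42). The least lowered members were Trim30c at 14.1 and 11.8 CPM (-0.26, -0.49 to -0.02), Slfn8 at 89.3 and 63.5 CPM (-0.49) and Ddx58, which encodes the RNA sensor RIG-I, at 56.2 and 39.2 CPM (-0.52). Together with Ifih1, which encodes the sensor MDA5 (-0.54), these were the 4 members that stayed under the 1.5-fold mark. The members with an ISRE core in a promoter had a median of -1.32 in microglia (18 genes) and those without had one of -1.20 (13 genes), with overlapping ranges.

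**Figure D3:**
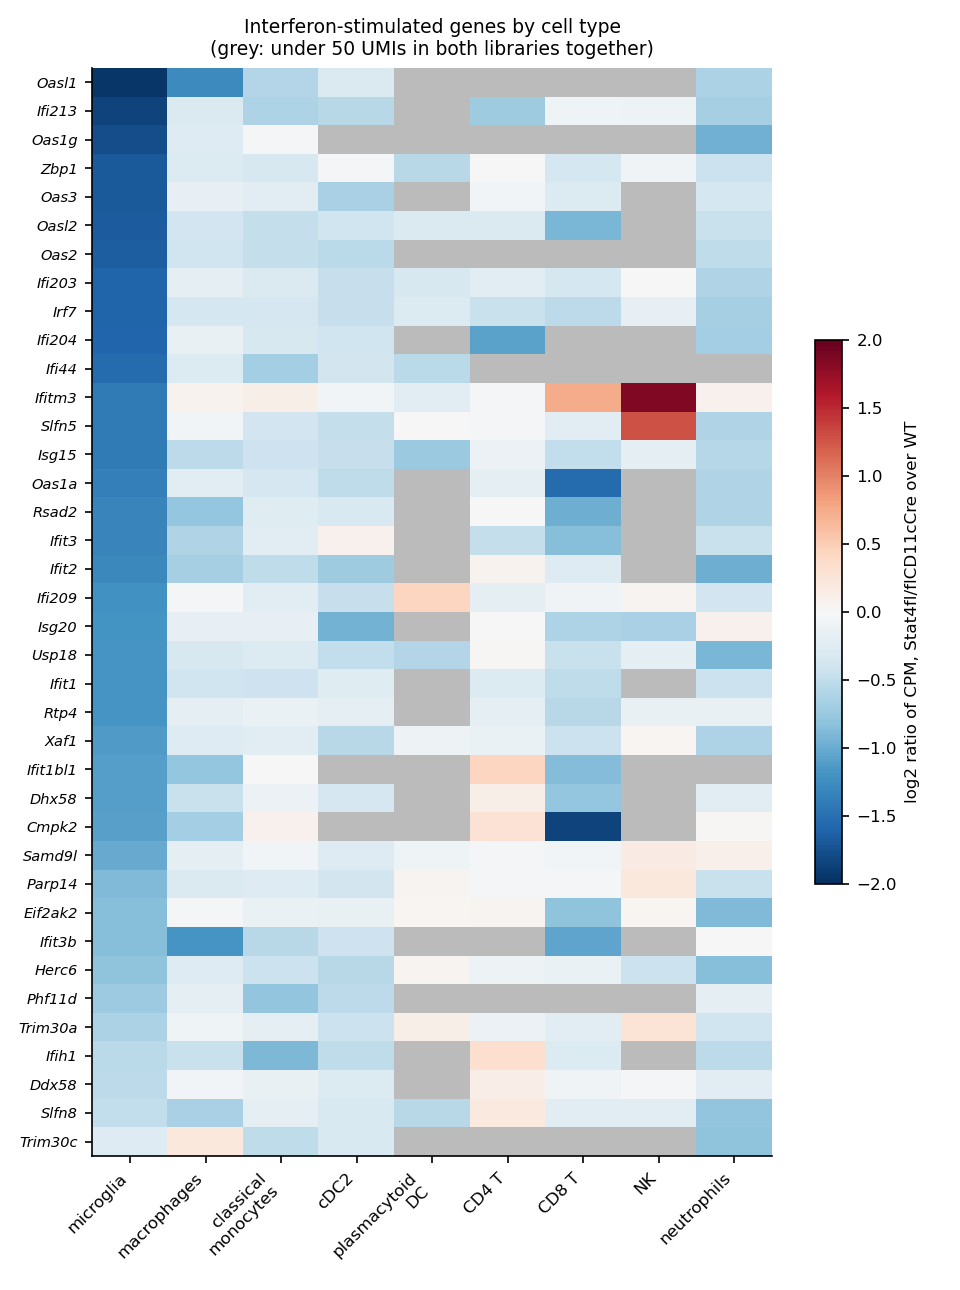
Log2 ratio of CPM, Stat4fl/flCD11cCre over WT, of each member (rows) in each cell type (columns); blue is lower and red higher in Stat4fl/flCD11cCre, and grey marks members with under 50 UMIs. The microglia column is blue in all 38 rows, from -1.94 for Oasl1 to -0.26 for Trim30c, and Ifitm3 and Slfn5 are red in NK cells.

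The module was also compared in microglia with no UMI of chosen monocyte and macrophage markers. Ccr2, Plac8 and Ly6c2 of the monocyte gate were not among these markers, and the part of such RNA in the result was not tested. In the 2329 WT and 4145 Stat4fl/flCD11cCre microglia with no UMI of 12 such markers, the module stood at 2759 and 1206 CPM (-1.19, -1.22 to -1.17), where 34 of the 37 members with enough UMIs passed the 1.5-fold mark downward, against 9.59% of all genes. In the microglia with 2 or more of these markers (8.18% of WT and 2.68% of Stat4fl/flCD11cCre microglia), it stood at 4283 and 4053 CPM (-0.08). MHC class II RNA moved with the result: 68.6% of WT but 15.2% of Stat4fl/flCD11cCre microglia had 10 or more UMIs of Cd74, H2-Aa, H2-Ab1 and H2-Eb1. In cells with no such UMI the module was at 1550 and 824 CPM (-0.91, -0.99 to -0.83), and in those with 1 to 9 at 2473 and 1238 CPM (-0.998). In cells with 10 or more it was at 3437 and 2806 CPM (-0.29, -0.32 to -0.27). There 2 of 38 members were 1.5-fold or more lower, against 4.55% of all genes: Oasl1 at 30.99 and 16.8 CPM (-0.88) and Ifi213 at 42.9 and 24.1 CPM (-0.83). The corresponding counts were 25 of 29 measured members in cells with no MHC class II UMI (7.33% of all genes) and 27 of 34 in cells with 1 to 9 (7.03%). These groups were cut on raw UMI counts, and depth differed between the libraries within them. Median gene UMIs per cell in WT and Stat4fl/flCD11cCre were 3531 and 4665 with no MHC class II UMI. They were 3851 and 5250 with 1 to 9, and 5257 and 7828.5 with 10 or more. The parts of depth and of the MHC class II difference in these results were not tested. Other measures also differed between the libraries' microglia: mitochondrial UMIs were 1.86% in WT and 1.30% in Stat4fl/flCD11cCre, the heat shock gene Hspa1a stood at 488 and 236.5 CPM, and the neutrophil gene S100a8 at 288 and 103 CPM. Their part in the result was not tested. These MHC class II genes also answer to interferon gamma, and the cells were sorted on MHC class II protein.

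**Figure D4:**
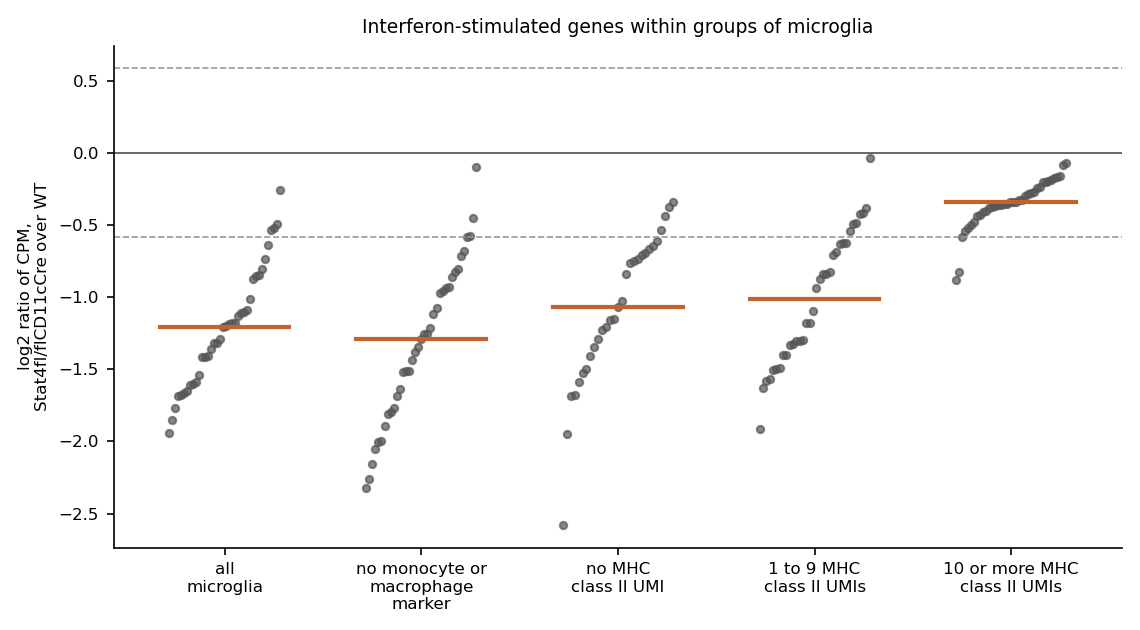
Log2 ratio of CPM, Stat4fl/flCD11cCre over WT (y axis), of each member with 50 or more UMIs (points) within groups of microglia (x axis); orange bars are medians and dashed lines mark 1.5-fold. The median lies at -1.20 in all microglia, -1.29 without monocyte or macrophage markers, and -0.34 in cells with 10 or more MHC class II UMIs. The MHC class II groups are cut on raw UMI counts and differ in depth between the libraries.

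Neutrophils had a log2 ratio of -0.21 (-0.24 to -0.19) for the module and 16 of 36 measured members 1.5-fold or more lower, against 13.8% of all genes. None was 1.5-fold or more higher (1.66% of all genes). The members' median was -0.51, beside -0.16 for all genes in these cells. Ifit2 went from 55.5 to 28.1 CPM (-0.98, -1.32 to -0.64), Usp18 from 48.3 to 25.6 CPM (-0.92) and Herc6 from 114 to 63.0 CPM (-0.85). Ifitm3 (2646 and 2802 CPM, 0.08), Samd9l, a translation inhibitor (150 and 161 CPM, 0.11), and Isg20 (0.08) were not lower. Scaling by trimmed means (TMM) offsets the general shift of 0.21 in these cells. It left 6 of 36 members 1.5-fold or more lower and a module ratio of -0.01. The 13.8% of all genes is for unscaled ratios, and the share after this scaling is not given. Neutrophils with under 10 UMIs of the specific granule genes Ltf, Camp and Ngp, 75.8% of WT and 72.9% of Stat4fl/flCD11cCre neutrophils, had 8855 and 7871 CPM of the module (-0.17). Those with 10 or more had 3041 and 3045 CPM (0.00, -0.06 to 0.06).

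Classical monocytes, the blood-derived precursors of CNS macrophages, differed little in the sum (-0.09, -0.10 to -0.07). The members' median was -0.28. Of the 38 members, 5 were 1.5-fold or more lower, against 4.98% of all genes, and 0 were as much higher, against 3.11%. Ifih1 went from 111 to 59.7 CPM (-0.90, -1.06 to -0.73), Phf11d from 57.6 to 33.2 CPM (-0.79) and Ifi213 from 127 to 83.1 CPM (-0.62). Ifitm3, which had 5057 and 5495 CPM (0.12, 0.10 to 0.14), was the member whose interval lay above 0. Cmpk2, a mitochondrial nucleotide kinase (22.8 and 24.3 CPM), and Samd9l (80.0 and 76.7 CPM) had intervals that include 0. Without Ifitm3 the sum had a ratio of -0.33.

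In monocyte-derived macrophages the ratio was -0.13 (-0.14 to -0.11), and 8 of 38 members were 1.5-fold or more lower, against 3.36% of all genes, with a median of -0.27, and 0 were as much higher, against 1.78%. The IFIT family held 4 of these 8. Oasl1 went from 53.4 to 22.2 CPM (-1.27, -1.50 to -1.04), Rsad2 from 74.1 to 43.3 CPM (-0.78) and Ifit2 from 51.4 to 32.4 CPM (-0.67). Ifitm3 was at 2060 and 2156 CPM (0.07), while Ifi209 (-0.04) and Slfn5 (-0.06) had intervals that include 0.

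Of the dendritic cells, cDC2 had a module ratio of -0.18 (-0.22 to -0.15), and the 35 measured members had a median of -0.42. The 1.5-fold mark was passed downward by 3 of these 35, against 3.46% of all genes, and upward by 0, against 4.75%. Isg20 went from 56.2 to 29.3 CPM (-0.94, -1.45 to -0.44), Slfn5 from 336 to 242 CPM (-0.48) and Isg15 from 374 to 273 CPM (-0.46). Ifitm3 (5455 and 5277 CPM, -0.05), Zbp1 (-0.04) and Ifit3 (0.09) differed least. Plasmacytoid dendritic cells, which can make large amounts of type I interferon, had 17 measured members and a module ratio of -0.17 (-0.26 to -0.09). In them 1 of 17, Isg15, was 1.5-fold or more lower, against 3.64% of all genes, at 146 and 87.3 CPM (-0.74, -1.13 to -0.36), and 0 were higher by as much, against 4.94%. Ifitm3 (-0.23) and Ifi203 (-0.31) had intervals below 0, and Ifi209 (0.43), Trim30a (0.12) and Slfn5 (0.00) had intervals that include it.

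Lymphocytes differed from one another. CD8 T cells had a module ratio of -0.28 (-0.33 to -0.22), with 10 of 31 measured members 1.5-fold or more lower, against 3.69% of all genes, and a median of -0.43. Cmpk2 went from 17.6 to 4.89 CPM (-1.85, -3.23 to -0.72), Oas1a from 20.3 to 6.99 CPM (-1.54) and Ifit3 from 89.1 to 49.6 CPM (-0.84). In CD4 T cells the ratio was -0.09 (-0.13 to -0.05), the median -0.04, and 2 of 31 members were 1.5-fold or more lower, against 3.60% of all genes: Ifi204 at 15.3 and 7.25 CPM (-1.07) and Ifi213 at 34.7 and 21.3 CPM (-0.71). No member was 1.5-fold or more higher there, against 2.29% of all genes. Irf7 was at 45.9 and 33.8 CPM (-0.44), and Ifih1 (0.33), Slfn8 (0.20) and Ifitm3 (-0.03) had intervals that include 0. CD4 T cells without monocyte or macrophage markers had a module ratio of -0.0023 (-0.05 to 0.05).

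NK cells were the compared type whose module was higher in Stat4fl/flCD11cCre, with a log2 ratio of 0.20 (0.11 to 0.29). Among 19 measured members, Isg20 was 1.5-fold or more lower (46.1 and 29.5 CPM, -0.64), against 2.56% of all genes. Ifitm3 (66.0 and 238 CPM, 1.85) and Slfn5 (12.2 and 29.5 CPM, 1.28, 0.48 to 2.14) were 1.5-fold or more higher, against 5.10% of all genes. The Ifitm3 value rested on few cells: 24 of 236 Stat4fl/flCD11cCre NK cells had a UMI, and 5 of them held 84.8% of the 363 UMIs. In WT, 39 of 306 NK cells had a UMI. Without the cells in the top 10% of doublet scores, 4 in Stat4fl/flCD11cCre and 2 in WT, Ifitm3 stood at 71.0 and 59.7 CPM, and the module ratio was -0.09. The sum of the other 37 members was 1124 CPM in WT and 1126 CPM in Stat4fl/flCD11cCre (0.00, -0.09 to 0.10). Ifitm3 in CD8 T cells was the 1 member 1.5-fold or more higher there, against 5.12% of all genes, at 172 and 288 CPM (0.75, 0.56 to 0.93), and 5 cells held 71.1% of its Stat4fl/flCD11cCre UMIs. Of these 412 UMIs, 204 were in 3 cells in the top 10% of doublet scores. Without such cells, Ifitm3 in CD8 T cells stood at 134 CPM in WT and 151 CPM in Stat4fl/flCD11cCre.

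Read member by member, the other genes followed throughout gave these values. Isg15 was lower in every compared type, at 486 and 365 CPM in classical monocytes, 406 and 274 CPM in neutrophils, 260 and 181 CPM in macrophages, 240 and 170 CPM in CD8 T cells, 86.9 and 80.4 CPM in CD4 T cells and 48.0 and 42.0 CPM in NK cells, where the intervals of the last 2 ratios include 0. Irf7 had log2 ratios of -0.67 in neutrophils, -0.53 in CD8 T cells, -0.46 in cDC2, -0.35 in macrophages, -0.34 in classical monocytes, -0.27 in plasmacytoid dendritic cells and -0.17 in NK cells. Oasl2 had -0.91 in CD8 T cells, -0.48 in classical monocytes, -0.45 in neutrophils, -0.40 in cDC2, -0.38 in macrophages, and -0.29 in CD4 T cells and in plasmacytoid dendritic cells. In NK cells Oasl2 had 0.62 on 8 WT and 12 Stat4fl/flCD11cCre UMIs, with an interval that includes 0. Usp18 had -0.58 in plasmacytoid dendritic cells, -0.49 in cDC2, -0.44 in CD8 T cells, -0.33 in macrophages, -0.27 in classical monocytes, -0.20 in NK cells and 0.02 in CD4 T cells. Rsad2 had -0.98 in CD8 T cells, -0.61 in neutrophils, -0.31 in cDC2, -0.29 in plasmacytoid dendritic cells, -0.25 in classical monocytes and -0.01 in CD4 T cells. Ifit3 had -0.48 in CD4 T cells, -0.44 in neutrophils and -0.23 in classical monocytes, and its value in macrophages is not given here. In NK cells Ifit3 (15.4 and 5.91 CPM) and Rsad2 (12.8 and 4.60 CPM), and in both NK cells and plasmacytoid dendritic cells some of the others, rest on under 50 UMIs. Ifitm3 thus had its lowest ratio in microglia (-1.42) and its highest in NK cells (1.85).

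The members were also counted per cell, and whether the response of cells is graded was not tested. Each cell with 2500 or more UMIs was thinned to 2500, and a cell in which 10 or more of the 38 members then had a UMI was called high-scoring, which is a range of the score and not a cell type. In WT 17.5% (16.8 to 18.2, Clopper-Pearson) of 12001 cells were high-scoring, and in Stat4fl/flCD11cCre 9.33% (8.80 to 9.87) of 11538. Cells near the limit were common: 563 WT and 273 Stat4fl/flCD11cCre cells had 9 members and 451 and 201 had 10. Microglia were high-scoring in 12.6% (11.4 to 13.8) and 3.51% (3.01 to 4.08), a ratio of 0.279 (0.234 to 0.334), and their median score was 4 in WT and 1 in Stat4fl/flCD11cCre. No member was found in 5.17% of WT and 23.0% of Stat4fl/flCD11cCre microglia. Too shallow to be thinned were 287 WT and 199 Stat4fl/flCD11cCre microglia.

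High-scoring cells made up 41.4% of classical monocytes in WT and 30.2% in Stat4fl/flCD11cCre (ratio 0.729, 0.640 to 0.831). Neutrophils had 29.6% and 14.5% (0.491, 0.384 to 0.629), with 158 WT and 210 Stat4fl/flCD11cCre neutrophils too shallow to be scored, and cDC2 had 26.9% and 16.9% (0.630, 0.426 to 0.932). The ratio's interval included 1 in macrophages (14.2% and 15.7%, 0.887 to 1.38), CD8 T cells (12.8% and 9.74%), CD4 T cells (4.18% and 4.17%), NK cells (2.60% and 2.71%) and plasmacytoid dendritic cells (5.22% and 2.42%). Choroid plexus epithelial cells had 1 such cell of 123 in WT (0.813%) and 0 of 80 in Stat4fl/flCD11cCre, which allows a share of up to 3.75%. Before thinning, 10 or more members were found in microglia with a ratio of 0.359, in classical monocytes with one of 0.961 and in neutrophils with one of 0.652.

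**Figure D5:**
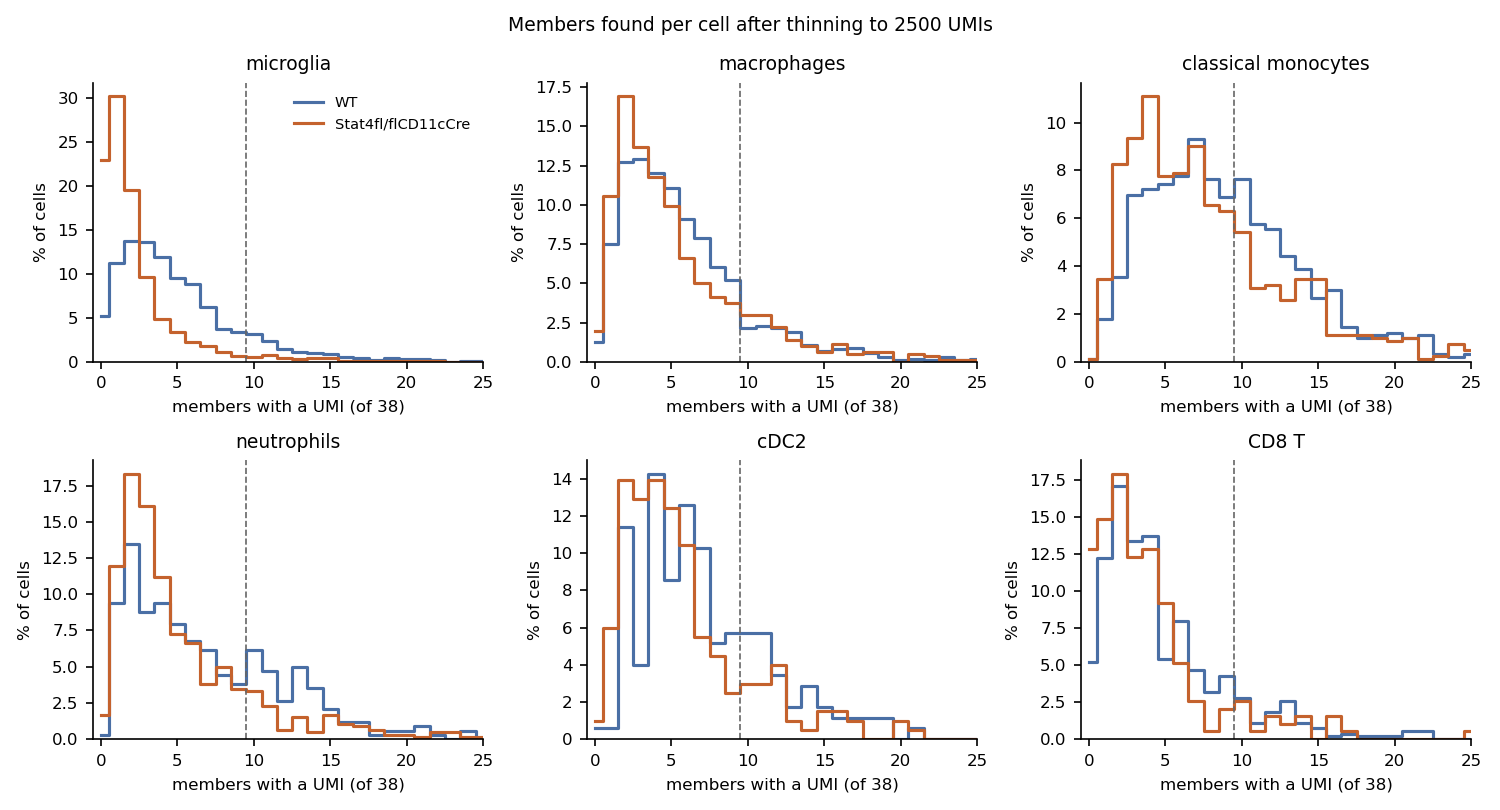
Number of the 38 members with a UMI per cell after thinning to 2500 UMIs (x axis) and share of cells (y axis) in 6 cell types of the WT and Stat4fl/flCD11cCre libraries; the dashed line marks 10 members. The Stat4fl/flCD11cCre curve of microglia is shifted to the left (median 1 against 4), and the macrophage curves nearly overlap at and above 10.

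Within high-scoring microglia, Isg15 had a UMI in 67.4% of WT and 68.1% of Stat4fl/flCD11cCre high-scoring microglia, Oasl2 in 58.3% and 58.4%, and Ifit3 in 51.7% and 62.7%. These cells were chosen by the same genes, so the frequencies are a description and no comparison is drawn from them. Among the other microglia, Isg15 had a UMI in 14.7% of WT and 5.02% of Stat4fl/flCD11cCre cells, Ifi204 in 31.6% and 8.66%, and Trim30a in 43.1% and 30.3%. The other microglia were chosen by the same genes too, so these frequencies are also a description and no comparison is drawn from them.

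CD317, the protein BST2 (tetherin), which is itself induced by interferon, was read by an antibody tag that the score did not use. High-scoring microglia had a median of 45.5 (WT) and 47 (Stat4fl/flCD11cCre) UMIs of the CD317 tag, against 29 and 26 in the other microglia. The sum of the other 4 tags was higher in high-scoring microglia too (medians of 599.5 against 483 in WT and 752.5 against 653 in Stat4fl/flCD11cCre), as were gene UMIs (6058 against 4801.5, and 7162.5 against 5165). The share of CD317 among tags was 6.34% against 6.11% in WT and 5.67% against 5.39% in Stat4fl/flCD11cCre. In neutrophils the CD317 medians were 39 against 14 in WT and 33 against 23 in Stat4fl/flCD11cCre, while the sum of the other tags had medians of 1805 against 750.5 and 1879 against 842.5. What the general tag level adds to the CD317 differences was not tested. Plasmacytoid dendritic cells carried the tag at medians of 197 and 196, with Bst2 RNA at 4001 and 4230 CPM, though their module was low. Bst2 RNA in microglia was at 549 and 292 CPM (-0.91, -0.95 to -0.87).

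Other genes of the pathway were examined from fixed lists. Ifnb1, the gene of interferon beta, had 221 UMIs in 121 of 13298 WT cells and 22 UMIs in 19 of 12305 Stat4fl/flCD11cCre cells, that is 1.81 and 0.184 CPM (log2 ratio -3.30, -4.00 to -2.66). In WT these UMIs were spread over microglia (29), classical monocytes (22), macrophages (18), cDC2 (8), neutrophils (2), cells that met more than 1 gate (122) and cells that met none (20), with at most 9 in 1 cell. In Stat4fl/flCD11cCre 4 were in microglia and 2 in classical monocytes, and none of 782 macrophages had one, which allows a share of up to 0.384%. Interferon alpha genes had at most 4 UMIs each in a library. The only ligand with 50 or more UMIs in a compared type was Ifng, at 369 and 250 CPM in CD4 T cells (-0.56, -0.67 to -0.45), 181 and 65.0 CPM in CD8 T cells (-1.48, -1.81 to -1.16) and 88.4 and 114 CPM in NK cells (0.36, 0.03 to 0.70).

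Some signal genes, chosen after their values were seen, are given for microglia and do not stand for the pathway. Stat2, a transcription factor of the type I response, was at 123 and 47.4 CPM (-1.37), its partner gene Irf9 at 74.4 and 46.7 CPM (-0.67) and Socs1, an inhibitor of the receptor kinases, at 31.5 and 15.9 CPM (-0.99), whereas the receptor chains Ifnar1 (58.8 and 56.4 CPM, -0.06) and Ifnar2 (315 and 329 CPM, 0.06) lay near 0. The upstream sensing genes had 1 of 11 at least 1.5-fold lower in microglia, a share near the 11.3% of all genes, and a median of -0.06. Of 25 interferon gamma response genes, such as the chemokine gene Cxcl9 (216 and 55.7 CPM) and the GTPase gene Gbp2 (248 and 69.7 CPM), all 25 were 1.5-fold or more lower in microglia, against 11.3% of all genes, with a median of -1.69. By the same mark, 22 of 25 were lower in neutrophils (median -1.07), against 13.8% of all genes there, and 12 of 25 in classical monocytes (-0.57), against 4.98%. In macrophages 5 of 25 were lower (-0.34), against 3.36%, and in CD8 T cells 7 of 23 (-0.37), against 3.69%. The counts were 2 of 24 in cDC2, against 3.46%, and 2 of 25 in CD4 T cells, against 3.60%. In NK cells 0 of 21 were lower, against 2.56% of all genes, and 5 were higher, against 5.10%. Some of these genes answer to type I interferon too.

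Over all gated cells, the module stood at 4179 CPM in WT and 3375 CPM in Stat4fl/flCD11cCre (-0.31), a ratio that mixes the types in the shares of each library. With the WT shares given to both libraries the ratio was -0.30, and with the Stat4fl/flCD11cCre shares it was -0.37.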

How the data were processed

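Single-cell RNA libraries of sorted CNS cells, 1 per genotype, were analysed. The authors deposited 1 matrix of raw UMI counts for each library, with barcodes as columns and genes and antibody tags as rows, and per the file headers the software was Cell Ranger 7.0.0. The submitters' processing notes also name mm10, bcl2fastq, STAR, Seurat and R 4.3.0. Which annotation release was used, if intronic reads were counted and if doublets were removed is not given in the sources used here. In all, the libraries hold 122975017 (WT) and 120221740 (Stat4fl/flCD11cCre) gene UMIs in 13820 and 12534 barcodes, and the groups come from the genotype label.

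Cell types were gated by the number of detected markers: microglia 4 of 9, macrophages 3 of 8, classical monocytes 5 of 7, cDC2 3 of 9, plasmacytoid dendritic cells 4 of 8, T cells 3 of 8, NK cells 3 of 7 and neutrophils 4 of 11. These numbers were chosen after the data were seen. Cells in more than 1 gate, 2937 WT and 2029 Stat4fl/flCD11cCre cells, were left out, and 1349 and 744 cells met no gate. How many of the cells left out were doublets was not tested, and cells with high doublet scores remained in the gates. The module members and the gene lists were chosen with earlier results of these data known. Members are named by 3 rules: Isg15, Irf7, Ifitm3, Ifit3, Oasl2, Usp18, Rsad2 and Mx1 where they have 10 or more UMIs, the 3 lowest and 3 highest ratios per type by the interval bound nearest to 0, and the 3 most concentrated members per type; others were chosen after their values were seen.

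UMIs were summed per type and library and divided by all gene UMIs of that sum (CPM), with exact Poisson intervals. Ratios have exact conditional binomial intervals, and ratios of shares have log-normal ones. A member counts as measured with 50 or more UMIs in both libraries together. Python 3.11.15, scipy 1.17.1, scanpy 1.11.5 (Scrublet scores) and edgeR 4.0.16 (TMM factors only) were used. Interval and thinning steps were tested on simulated data. Alternatives were doublet removal, stricter gates and filters, other scaling, thresholds and thinning, and 2 checks added after seeing the data. As a measure of free RNA, the neutrophil gene S100a8 was at 84.5 and 81.4 CPM in CD4 T cells and at 96901 and 105159 CPM in neutrophils. In microglia, as given above, S100a8 was higher in WT than in Stat4fl/flCD11cCre, so the CD4 T cell values do not stand for all types. The count and median of the receptor and signal list are not reported here.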

Additional observations from a re-analysis of the deposited data

Results flagged for a closer look

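The module was higher in Stat4fl/flCD11cCre NK cells, with a log2 ratio of 0.20, and lower in the other 8 compared types, with counting intervals that exclude 0 on each side. The difference was not tested, since each genotype has 1 library. The NK value did not hold: it was -0.091 without the cells with the highest doublet scores, -0.026 with cells weighted equally, 0.0019 without Ifitm3 and 0.0031 after thinning. On the other side, the neutrophil value was -0.0060 with TMM scaling and the CD4 T cell value -0.0023 without cells that carry monocyte or macrophage markers.

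The ratio of Ifitm3 had an interval above 0 in 5 cell types. It was 0.066 in monocyte-derived macrophages, 0.12 in classical monocytes, 0.75 in CD8 T cells, 1.85 in NK cells and 0.083 in neutrophils (log2). Its interval lay below 0 in 3 (microglia, cDC2 and plasmacytoid dendritic cells). In NK cells the sum of the other members had a ratio whose interval includes 0. These differences were not tested either. The NK and CD8 T cell values rest on few cells, as 5 cells of each type held 84.8% and 71.1% of the Stat4fl/flCD11cCre UMIs. Without the cells in the top 10% of doublet scores, the levels in WT and Stat4fl/flCD11cCre were closer. They were 59.7 and 71.0 CPM in NK cells, and 134 and 151 CPM in CD8 T cells.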

How the results depend on the processing

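Each comparison has 1 library a side, with no replicate to leave out. No paired analysis was possible because each genotype has 1 library. Over all alternatives, 36 of 69 module ratios and 68 of 73 share ratios stayed inside the counting interval of the value reported. Member counts have no such interval and were judged by the size of the change, and 39 of 64 stayed close. Some share-ratio intervals were wide, at 0.139 to 1.55 in plasmacytoid dendritic cells and 0.356 to 3.06 in NK cells. In microglia the interval was narrower, at 0.234 to 0.334. Staying inside a wide interval shows little, so these tallies do not rank the measures by stability. The cause of each move was not tested unless the alternative itself shows it.

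Module log2 ratios moved as follows. Without the top 10% of doublet scores, NK cells turned to -0.091, microglia had -1.18, CD4 T cells -0.032 and neutrophils -0.27. With TMM, microglia had -1.18, macrophages -0.090, CD8 T cells -0.35 and neutrophils -0.0060. With cells weighted equally, NK cells turned to -0.026, microglia had -1.27, macrophages -0.032, monocytes -0.052, CD8 T cells -0.35 and neutrophils -0.16. Thinned, microglia had -1.28, macrophages -0.022, monocytes -0.065, plasmacytoid dendritic cells -0.34, CD8 T cells -0.34, NK cells 0.0031 and neutrophils -0.16. Without Ifitm3, microglia had -1.08, macrophages -0.29, monocytes -0.33, cDC2 -0.41, CD8 T cells -0.38, NK cells 0.0019 and neutrophils -0.46. Stricter gates gave -0.17 in monocytes, -0.23 in macrophages and -0.13 in neutrophils. Without monocyte or macrophage markers, an alternative added after seeing the data, microglia had -1.19 and CD4 T cells -0.0023.

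Counts of members 1.5-fold or more lower moved as follows, given without the shares of all genes under each alternative. A 2-fold mark left 1 in CD4 T cells, 3 in CD8 T cells, 2 in macrophages and 0 in NK cells, cDC2, monocytes, neutrophils and plasmacytoid dendritic cells. With 20 or more UMIs the counts were 4 in CD4 T and NK cells, 5 in cDC2 and 2 in plasmacytoid dendritic cells, and with no such filter 7, 7, 5 and 5. Doublet removal gave 3 in NK cells, 5 in cDC2 and 3 in plasmacytoid dendritic cells. TMM gave 6 in neutrophils and 2 in plasmacytoid dendritic cells. The stricter cell filter gave 2 in plasmacytoid dendritic cells, and stricter gates gave 6 in cDC2, 10 in monocytes and 4 in plasmacytoid dendritic cells. Of the ratios of high-scoring shares, no thinning gave 0.961 in monocytes, 0.359 in microglia and 0.652 in neutrophils, stricter gates 0.630 in monocytes, and thinning to 1000 UMIs with 5 or more members 0.722 in neutrophils. In microglia the count stayed at 34 except with a 2-fold mark (28). Plasmacytoid dendritic cells and NK cells had the fewest measured members, 17 and 19.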

Other observations

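Gated cell types outside the comparison had these module levels. B cells (80 WT and 44 Stat4fl/flCD11cCre cells) had 1782 and 802 CPM of the module, and choroid plexus epithelial cells (129 and 81 cells) had 570 and 148 CPM, the lowest of all gated types in both libraries. Nonclassical monocytes, the patrolling kind, stood at 5663 and 5849 CPM, close to each other, and cDC1, the cross-presenting dendritic cells, at 4425 and 3963 CPM. Myeloid progenitors had 2157 and 1980 CPM and 0 of 57 (which allows up to 5.26%) and 1 of 114 high-scoring cells. T cells without a gamma-delta call that had UMIs of both Cd4 and a Cd8 gene, or of neither (673 and 270 cells), had 2049 and 2108 CPM.

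Cells that met no gate held a higher module level than most gated types, 7960 and 7127 CPM, and 31.2% and 23.8% of them were high-scoring. Cells that met more than 1 gate stood at 5024 and 3940 CPM and supplied 30.2% of the WT and 20.7% of the Stat4fl/flCD11cCre high-scoring cells.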
